A study of Sus scrofa with 15 samples.

Results

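Actin regulators were followed in 3 NK cell populations of the pig through 10 genes: *TMSB4X*, *TMSB10*, *PFN1*, *CFL1*, *COTL1*, *CORO1A*, *LCP1*, *FLNA*, *SVIL* and *TRIOBP*. They were taken by symbol from a table of 29886 genes, and all 10 were among the 10939 genes with enough counts to be tested. The list was written by function, from the abundant binders of actin monomers to the cross-linkers of filaments, with results of these libraries already known. Differences of the members between populations are therefore a description, and their p-values, adjusted over all 10939 genes, say only where each member stood in the fit of the whole table.

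RNA came from 5 pigs, 6 months old, for which no treatment is named, and each pig gave 3 libraries, so n = 5 in every population. Blood CD8α high NK cells (cNK cells, labelled Blood NK) were sorted from peripheral blood, and liver CD8α high NK cells (labelled Conventional liver NK) and liver CD8α dim NK cells (lrNK cells, labelled Liver resident NK) from fluid flushed through the portal vein of the same animals. All 3 were depleted of cells with CD3 or CD172a and then sorted as negative for both and by their CD8α signal, and the liver cells, unlike the blood cells, had passed through a flush with cold saline, so organ and handling cannot be told apart. Libraries were read from the 3′ end of polyadenylated transcripts, so a count does not grow with transcript length. How well the 3′ end of a gene is captured and annotated still differs between genes, and levels are compared mainly within a gene. Levels are given in CPM, counts scaled to a common library size by the TMM method.

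Library totals ran from 2003499 to 5680221 counts. All 10 NK cell markers looked for were detected in each population, though in the lrNK library of pig 3 several were far below the other 4 (*KLRK1* 75.5 against 330.2 to 1168 CPM, *KLRB1* 193 against 1089 to 2316 CPM, *GZMB* 3.41 against 13.4 to 65.2 CPM) and others were the highest of the 5 (*PRF1* 574 against at most 305 CPM, *NKG7* 1391 against at most 1278 CPM, *TYROBP* 244 against at most 172 CPM, *CD8A* 57.0 against at most 49.4 CPM). *CD8A* was lower in lrNK cells than in either CD8α high population, in the direction of the gate. Markers of B cells (*MS4A1*, *CD79B*, *PAX5*, with *CD79A* at 0 counts in all 15 libraries) summed to 188 to 648 CPM in lrNK libraries, 9.55 to 99.9 CPM in blood and 0 to 38.7 CPM in liver CD8α high libraries. Markers of T cells, with *CD4* and *CD5* at 0 counts throughout, summed to 109.9 to 593 CPM in lrNK libraries, 637 to 1203 CPM in blood and 714 to 1076 CPM in liver CD8α high libraries. Nearly all of that sum was *CD3G*, which was lower in lrNK cells (mean 289 CPM, against 865 CPM in blood and 825 CPM in liver CD8α high cells), while *CD3D* (mean 8.43, 3.78 and 7.38 CPM in that order) and *CD3E* did not pass the test. The part of these cells in the rises and falls of lrNK cells described here was not tested. Markers of hepatocytes, endothelium and myeloid cells, each list taken alone, summed to at most 8.14, 2.64 and 25.6 CPM in any library. Platelet markers summed to 73.4 to 112 CPM in blood, 88.1 to 117 CPM in liver CD8α high and 72.3 to 178 CPM in lrNK libraries. Nearly all of the platelet sum was *GP9* (mean 90.5, 96.4 and 118 CPM in that order). *ITGA2B* ran the other way (3.06, 1.83 and 0.417 CPM), and *GP1BB* had 0 counts throughout. Erythroid markers summed to 0 to 321, 0 to 56.6 and 0 to 24.1 CPM, with the highest, mostly *HBB*, in the blood library of pig 4. The lrNK library of pig 3 stood apart from the other 4 in several of the genes described here, and where it moved a printed fold change by over 1.5 times, or turned its direction, the value without it is given.

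Actin filaments grow by addition of actin monomers and are taken apart again, and the balance sets the stiffness and shape of the cell cortex. Thymosins and profilin bind monomers, cofilin severs and disassembles old filaments, and coronin and coactosin bind along filaments. Plastin and filamin join filaments into bundles and networks, and supervillin and TRIOBP tie them to the membrane and to other structures. In NK cells, actin is remodelled when the cell migrates and when it forms the synapse through which it kills a target. Sequences of these genes or their proteins are not printed here.

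In lrNK cells, 1 of the 10 regulators was higher and 3 were lower than in blood cNK cells, while among all tested genes 8.62% were higher and 9.6% lower (edgeR's quasi-likelihood test, Benjamini-Hochberg adjusted p under 0.05). Against liver CD8α high NK cells, 1 was higher and 4 were lower, beside 6.96% and 7.68% of all tested genes. *COTL1* was the member that rose, and *FLNA*, *SVIL* and *TRIOBP* fell in both comparisons. The abundant monomer binders and *LCP1* passed the test in neither. The median log2 fold change over the 10 was -0.30 in each comparison, and over all tested genes it was 0.01 against blood and 0.02 against liver CD8α high NK cells. Both medians of the 10 were set by *TMSB4X* and *PFN1*, which moved without the lrNK library of pig 3. Their log2 fold changes were then 0.0042 and 0.03 against blood and -0.01 and 0.01 against liver CD8α high NK cells. Between liver and blood CD8α high NK cells no member passed the test (0.064% of all tested genes did, 0.0457% higher and 0.0183% lower), with 2 members, *COTL1* and *TRIOBP*, at an unadjusted p under 0.05, as were 5.02% of all tested genes. DESeq2 called no member there either.

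**Figure D1:**
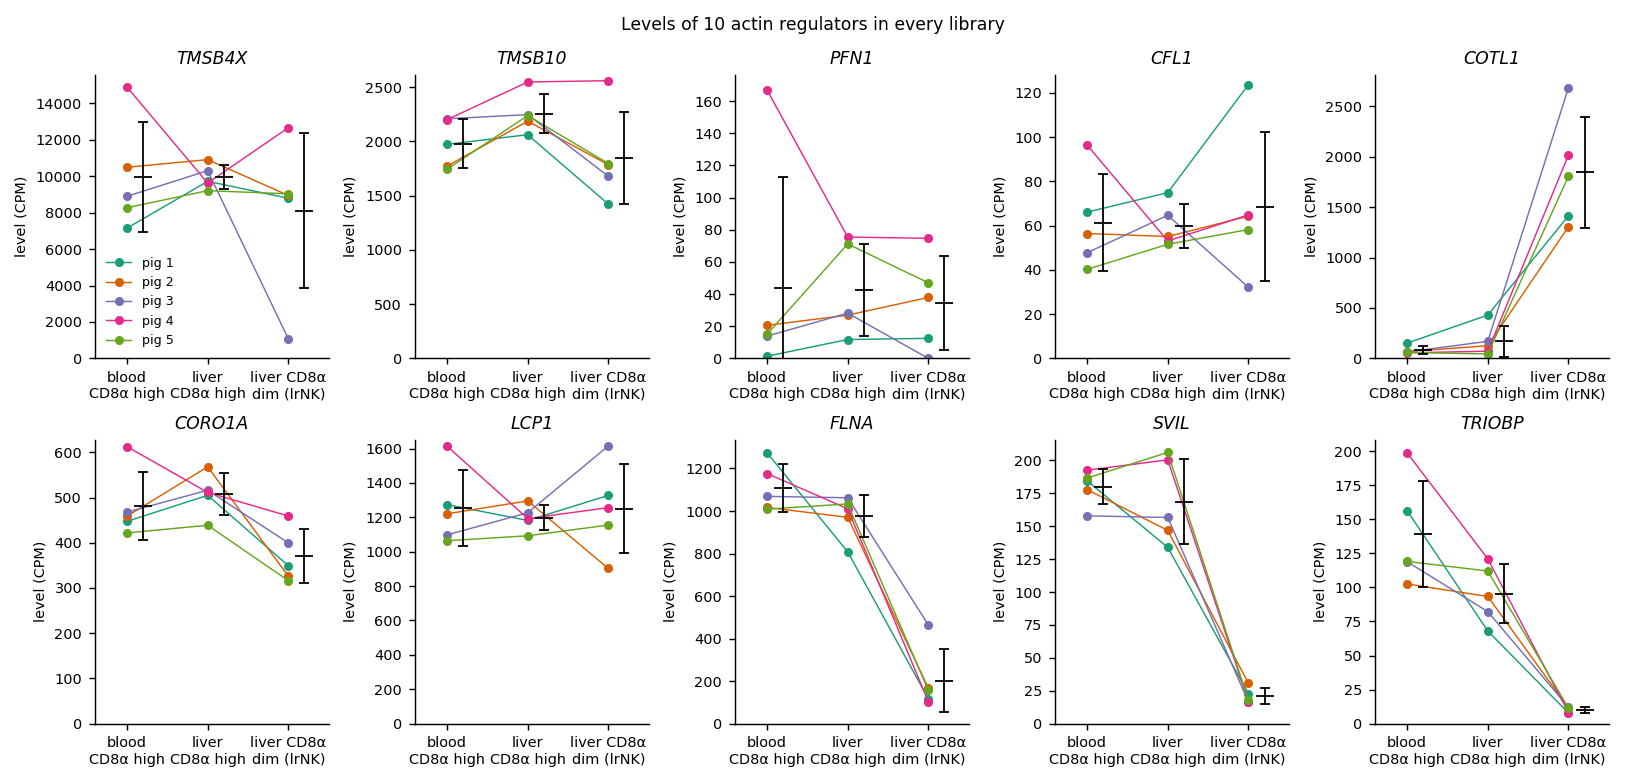
Level of each of the 10 actin regulators (y axis, CPM, from 0) in the CD8α high cells of blood, those of liver, and lrNK cells. Each point is a library, lines join the libraries of a pig, and the black dash with its bar is the mean ± SD of 5 libraries (cut at 0 for *PFN1*). The lrNK libraries lie apart from the other 10 for *COTL1*, *FLNA*, *SVIL* and *TRIOBP*, and *TMSB4X* has a single low lrNK point, that of pig 3.

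*TMSB4X* encodes thymosin beta-4, the main protein that holds actin monomers in reserve. It lies on chromosome X from 9649516 to 9651662 of Sscrofa11.1 and had the highest level of the 10 members in all libraries except the lrNK library of pig 3. In pigs 1 to 5 its level was 7152, 10494, 8899.6, 14896 and 8273 CPM in blood, 9723, 10915, 10309, 9629 and 9209.8 CPM in liver CD8α high cells and 8794, 8947, 1077, 12665 and 9036 CPM in lrNK cells. The populations overlapped, and the lrNK library of pig 3 lay far below all other 14. The log2 fold change of lrNK cells against blood was -0.29 (standard error, SE, 0.36, 95% interval -1.04 to 0.45, edgeR adjusted p = 0.647). Without the lrNK library of pig 3 the value was 0.0042, 95% interval -0.35 to 0.36.

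*TMSB10*, on chromosome 3 from 59776236 to 59777252, encodes thymosin beta-10, a close relative with the same hold on monomers. Its mean level was 1979 ± 224 CPM (SD, n = 5) in blood, 2256 ± 179 CPM in liver CD8α high and 1848 ± 425 CPM in lrNK cells. The 3 ranges overlapped, and the lrNK library of pig 3, at 1678 CPM, was second lowest among the lrNK libraries rather than apart. Liver CD8α high cells were above blood in all 5 pigs, by 1.02 to 1.28 times. That difference did not pass (log2 fold change 0.19, 95% interval -0.12 to 0.50, edgeR adjusted p = 0.9996). Log2 fold changes were -0.10 (SE 0.15, 95% interval -0.41 to 0.21, edgeR adjusted p = 0.721) for lrNK cells against blood and -0.29 (95% interval -0.60 to 0.02, edgeR adjusted p = 0.241) against liver CD8α high cells. Counts of *TMSB4X* were 4.95 to 6.19 times those of *TMSB10* in 4 lrNK libraries and 3.62 to 6.77 times in blood. In the lrNK library of pig 3 the ratio was 0.642.

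*PFN1*, on chromosome 12 from 51962642 to 51965570, encodes profilin, which loads actin monomers for addition to growing filaments. It was counted 5, 75, 51, 462 and 44 times in the blood libraries of pigs 1 to 5, 34, 102, 101, 438 and 298 times in liver CD8α high and 30, 79, 0, 266 and 180 times in lrNK libraries. The levels, 43.5 ± 69.3 CPM (SD, n = 5) in blood, 42.7 ± 28.7 CPM in liver CD8α high and 34.4 ± 29.4 CPM in lrNK cells, overlapped throughout. The difference between lrNK cells and blood had a 95% interval from -2.111 to 1.497 on the log2 scale (log2 fold change -0.31, edgeR adjusted p = 0.864), which leaves a several-fold difference in either direction undetectable here. Without the lrNK library of pig 3, which had 0 counts, the log2 fold change was 0.03 (95% interval -1.57 to 1.63).

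*PFN1* libraries kept much of their order by pig. Pig 4 had the highest level in all 3 populations (167, 75.5 and 74.7 CPM), and pig 1 the lowest in both CD8α high populations (1.35 and 11.7 CPM). A test of the pig terms, added after these values were seen, did not reach the threshold with all 15 libraries (edgeR adjusted p = 0.121), where no member and 0.421% of all tested genes passed. In subsets of libraries chosen after that, it passed without the lrNK library of pig 3, which breaks the order (edgeR adjusted p = 0.00268, beside 1.49% of all genes) and in the 10 CD8α high libraries alone (edgeR adjusted p = 5.07e-04, beside 2.34%). These subset values restate the order that was seen and give it no separate support. An animal and the handling of its samples cannot be told apart here.

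*CFL1*, on chromosome 2 from 6471558 to 6475019, encodes cofilin, which severs filaments and speeds their disassembly. Blood cells held 61.4 ± 21.9 CPM (SD, n = 5), liver CD8α high cells 59.9 ± 9.84 CPM and lrNK cells 68.7 ± 33.6 CPM. Within lrNK cells it ran from 32.2 CPM in pig 3 to 124 CPM in pig 1, and the populations overlapped (log2 fold change of lrNK cells against blood 0.16, 95% interval -0.43 to 0.76, edgeR adjusted p = 0.762). Without the lrNK library of pig 3 this was 0.36. *CFL1* shares 232 bases with *SNX32*, whose counts were 74.2% to 98.2% of those of *CFL1* in all 15 libraries. How reads of the shared part were assigned is not given in the sources used here, and the level of *CFL1* is uncertain.

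*COTL1* encodes coactosin-like protein, which binds along actin filaments and competes with cofilin there, and lies on chromosome 6 from 4099341 to 4146281. Its level was 151, 67.7, 64.0, 54.6 and 59.0 CPM in the blood libraries of pigs 1 to 5, 429.6, 125, 169, 71.7 and 44.2 CPM in liver CD8α high and 1413, 1305, 2682, 2015 and 1805 CPM in lrNK libraries. All 5 lrNK libraries were above all 10 others, and the CD8α high populations overlapped. Within a pig, lrNK cells held 9.33 to 41.9 times the blood level, with pig 1 lowest and pig 3 highest. The log2 fold change of lrNK cells was 4.53 (SE 0.49, edgeR adjusted p = 7.06e-07) against blood and 3.46 (SE 0.46, edgeR adjusted p = 1.70e-05) against liver CD8α high cells. Without the lrNK library of pig 3 the values were 4.38 and 3.30. Without pig 1, in which lrNK cells held 3.29 times the liver CD8α high level against 10.4 to 40.9 times in the other 4, the second value was 4.25. In bulk samples such as these, a different share of cells of a kind and a different RNA amount per cell cannot be told apart. That limit holds for the falls described below too.

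Liver CD8α high cells held more *COTL1* than blood cells in 4 of 5 pigs, with a within-pig ratio of 0.749 in pig 5 and up to 2.84 in pig 1. The log2 fold change of 1.07 (SE 0.43, 95% interval 0.17 to 1.97) did not pass the test over all genes (edgeR adjusted p = 0.839). Pig 1 was highest in both CD8α high populations. The NK cell receptor gene *NCR1*, whose mean was 282 CPM in lrNK cells, 50.8 CPM in blood and 54.7 CPM in liver CD8α high cells, was highest in the same libraries, with 100.5 CPM in the blood library of pig 1 against at most 49.6 CPM in the others, and 167 CPM in its liver CD8α high library against at most 40.6 CPM. *KLRB1* and *KLRD1* were also highest in that liver library but not in the blood library of pig 1 (in blood, pig 4 and pig 5 were highest), and *NKG7* was highest in pig 4 in blood and pig 2 in liver CD8α high cells. *CD8A* was lowest in pig 1 in both, at 229 CPM in blood (others 457 to 634 CPM) and 276 CPM in liver (others 426 to 596 CPM). The liver CD8α high library of pig 1 was also the lowest of its population in *FLNA*, *SVIL* and *TRIOBP*. Its blood library was lowest in none of these, and highest in *FLNA*. The part of cells of another population in these libraries was not tested. In the 10 CD8α high libraries alone, a subset also chosen after the values were seen, the pig terms of *COTL1* passed the test (edgeR adjusted p = 3.53e-04, beside 2.34% of all genes), and with all 15 libraries they did not (edgeR adjusted p = 0.392). In lrNK cells pig 1 was second lowest.

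B cell markers were higher in the same lrNK libraries in which *COTL1* was higher (log2 fold change of *MS4A1* against blood 3.16, edgeR adjusted p = 0.0014), and their part in the *COTL1* level was not tested. In liver CD8α high libraries of pigs 1 to 5 the B cell marker sum was 38.7, 24.3, 14.5, 1.21 and 0 CPM, so that, as for *COTL1*, pig 1 was highest and pig 5 lowest. The lrNK library of pig 3 had the highest *COTL1* level, 2682 CPM, and the lowest B cell marker sum of its population, 188 CPM. Among blood libraries, that of pig 3 had the highest marker sum, 99.9 CPM, and 64.0 CPM of *COTL1*, near the other blood libraries, while that of pig 1 had a marker sum of 51.5 CPM and the highest *COTL1* level.

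*CORO1A*, on chromosome 3 from 18336813 to 18342381, encodes coronin 1A, the coronin of blood cells, which binds filaments at the cortex. Its level was 447, 459, 468, 613 and 422 CPM in blood libraries of pigs 1 to 5, 505, 568, 516, 511 and 439 CPM in liver CD8α high and 349, 326, 399.9, 459 and 316 CPM in lrNK libraries. Every pig had less of it in lrNK cells than in either other population, by 1.17 to 1.41 times against blood, but the ranges overlapped. It fell against liver CD8α high cells (log2 fold change -0.46, SE 0.15, edgeR adjusted p = 0.0394) and did not pass against blood (log2 fold change -0.38, edgeR adjusted p = 0.079). With the pig as a block both passed (edgeR adjusted p = 0.0189 and 0.0492). The call against liver CD8α high cells was lost without pig 1, 2, 3 or 5 (edgeR adjusted p = 0.113, 0.219, 0.0717 and 0.104).

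*LCP1* encodes L-plastin, the leukocyte protein that packs filaments into tight bundles, and lies on chromosome 11 from 21126504 to 21223543. Blood cells held 1254 ± 219 CPM (SD, n = 5), liver CD8α high cells 1198 ± 73.7 CPM and lrNK cells 1251 ± 259 CPM. The lrNK libraries, from 902 CPM in pig 2 to 1615 CPM in pig 3, covered the whole range of the other 10. The log2 fold change of lrNK cells against blood was -0.00312 (95% interval -0.33 to 0.32, edgeR adjusted p = 0.994), and no difference was detected within these bounds.

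*FLNA*, on chromosome X from 124889934 to 124915000, encodes filamin A, which joins filaments at wide angles into a network and ties them to integrins. Its level was 1274, 1017, 1069, 1176 and 1009 CPM in the blood libraries of pigs 1 to 5, 808, 970.4, 1062, 1010.5 and 1033 CPM in liver CD8α high and 117, 167, 464, 103 and 157 CPM in lrNK libraries. All lrNK libraries were below all others, and that of pig 3 was the least low. *FLNA* fell in lrNK cells by 2.46 on the log2 scale against blood (SE 0.30, edgeR adjusted p = 3.74e-06) and by 2.28 against liver CD8α high cells (SE 0.30, edgeR adjusted p = 1.17e-05). Without the lrNK library of pig 3 the log2 fold changes were -3.01 and -2.84. Within a pig, blood cells held 2.30 times the lrNK level in pig 3 and 6.09 to 11.4 times in the other 4.

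*COTL1* rose and *FLNA* fell in lrNK cells, and their counts were set against each other within each library. Blood libraries had 8.41 to 21.6 *FLNA* counts for each *COTL1* count, and liver CD8α high libraries 1.88 to 23.4, with the lowest in pig 1. In lrNK libraries the ratio was inverted, with 5.78 to 19.5 *COTL1* counts for each *FLNA* count. This ratio is taken within a library and needs no scaling between libraries, but it restates a rise and a fall already given. Capture differs between genes, so the ratio does not show which of them had more transcripts.

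*SVIL*, on chromosome 10 from 41176358 to 41462750, encodes supervillin, which ties actin and myosin II to the plasma membrane. Its level was 185, 178, 158, 193 and 187 CPM in the blood libraries of pigs 1 to 5, 134, 147, 157, 200.4 and 206 CPM in liver CD8α high and 22.8, 30.7, 16.6, 16.9 and 17.8 CPM in lrNK libraries. The lowest CD8α high library had over 4 times the level of the highest lrNK library. The log2 fold change of lrNK cells was -3.11 (SE 0.20, edgeR adjusted p = 9.08e-10) against blood and -3.02 (SE 0.20, edgeR adjusted p = 1.49e-09) against liver CD8α high cells. Between the CD8α high populations it was -0.09 (95% interval -0.46 to 0.28, edgeR adjusted p = 0.9996).

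*TRIOBP*, on chromosome 5 from 10066080 to 10132668, encodes a protein that binds filaments and the exchange factor TRIO and makes dense bundles in hair cells of the ear. Its level was 156, 103, 119, 199 and 119 CPM in the blood libraries of pigs 1 to 5, 68.0, 93.3, 82.2, 121 and 112 CPM in liver CD8α high and 7.89, 11.5, 12.2, 8.14 and 11.5 CPM in lrNK libraries. The lrNK libraries, with 19 to 44 counts each, were all below the other 10. The log2 fold change of lrNK cells was -3.76 (SE 0.25, edgeR adjusted p = 9.60e-10) against blood, the largest fall among the members, and -3.22 (SE 0.24, edgeR adjusted p = 6.85e-09) against liver CD8α high cells. Liver CD8α high cells were below blood in all 5 pigs, by 1.06 to 2.30 times, with a log2 fold change of -0.54 (95% interval -0.98 to -0.10) that did not pass over all genes (edgeR adjusted p = 0.813). The 2 CD8α high populations overlapped.

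**Figure D2:**
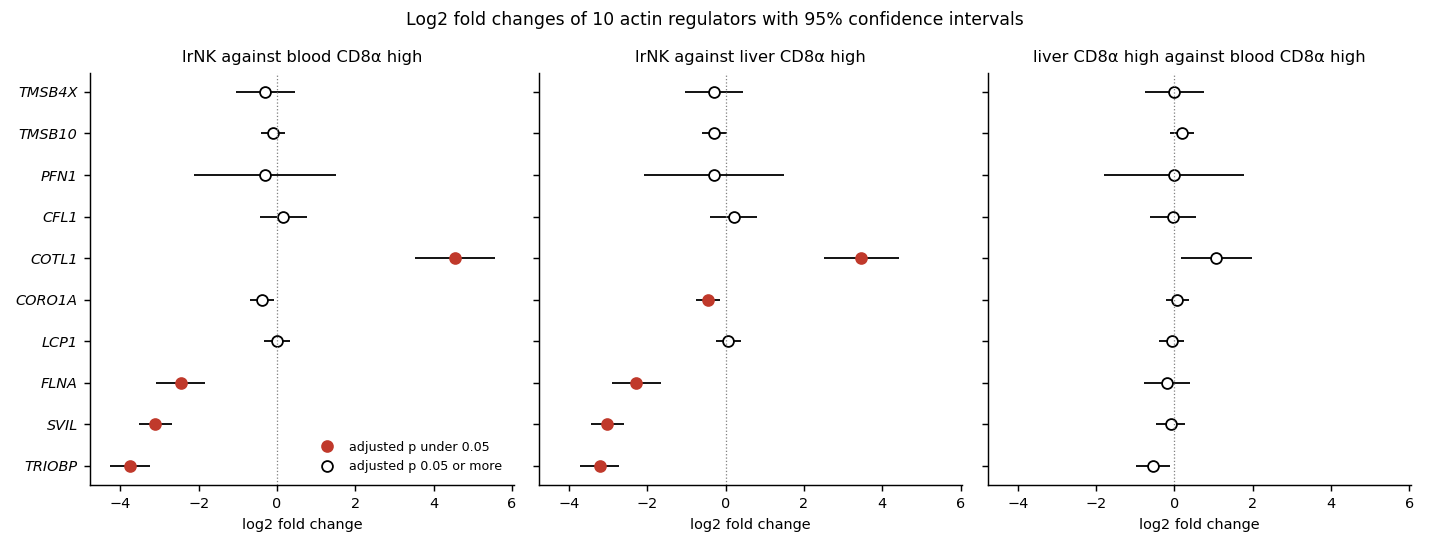
Log2 fold change (x axis) of each actin regulator (y axis) in 3 comparisons, as the edgeR estimate with its 95% confidence interval. Filled red points have an adjusted p under 0.05. *COTL1* lies near 4.53 and 3.46 in the lrNK comparisons, *FLNA*, *SVIL* and *TRIOBP* lie between -3.76 and -2.28, and the interval of *PFN1* is the widest.

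The libraries of the 2 populations did not overlap for 4 of 10 members in lrNK cells against blood (13.5% of all tested genes), for the same 4 against liver CD8α high cells (11.9%) and for 0 between the CD8α high populations (2.01%). The 10 members together took 1.25% to 2.03% of all counts in blood libraries, 1.47% to 1.60% in liver CD8α high and 0.814% to 1.81% in lrNK libraries. The lowest share was that of the lrNK library of pig 3, in which *TMSB4X* was low. The lrNK comparisons share the lrNK libraries, so their values are not independent of each other.

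The pattern over 15 libraries most like that of *COTL1*, by the root mean square distance of centred log2 CPM among 5238 other genes, was that of *EOMES* (distance 0.429), a transcription factor of NK cells, followed by LOC106507529 (0.460) and *RAB19* (0.472). Nearest to *SVIL* were *DENND1B* (0.283), *SIGIRR* (0.309) and *ADD3* (0.347), the last of which encodes an adducin, a protein that caps filaments and joins them to spectrin. These are descriptions over libraries that fall into populations.

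Beyond the 10 members, 97 genes of the actin pathway were looked up by role, of which 94 were in the table and 83 were tested. In lrNK cells against blood, 9 rose, 15 fell and 59 did not pass (28.9% called, beside 18.2% of all tested genes), with a median log2 fold change of -0.06. Against liver CD8α high cells 9 rose and 16 fell (30.1%, beside 14.6%). There, beside 6.96% higher and 7.68% lower among all tested genes, the Arp2/3 complex had 3 of 8 higher (calls that several other settings did not keep), formins 3 of 9 lower, bundling and cross-linking genes 2 of 12 higher and 4 lower, and adhesion linkers 1 of 10 higher and 3 lower. Of the other roles against liver CD8α high cells, myosins and tropomyosins had 3 of 10 lower, and monomer binding and turnover 1 of 12 higher and 3 lower. Nucleation promoting factors had 1 of 9 higher, and capping and severing genes 1 of 9 higher. Both comparisons use the lrNK libraries. Between the CD8α high populations none passed in edgeR or DESeq2, and none had an unadjusted p under 0.05, beside 5.02% of all tested genes.

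Neither gene of actin itself passed the test. *ACTB* had 8094 ± 1316 CPM (SD, n = 5) in blood, 8186 ± 356 CPM in liver CD8α high and 8972 ± 3865 CPM in lrNK cells (log2 fold change of lrNK cells against blood 0.15, 95% interval -0.26 to 0.56, edgeR adjusted p = 0.682). Of the lrNK libraries, that of pig 3 had 15795 CPM and the other 4 6396 to 7954 CPM. Without it the lrNK mean was 7266 ± 723 CPM (SD, n = 4), below that of blood, and the log2 fold change turned to -0.14 (95% interval -0.40 to 0.12). In the lrNK library of pig 3 *ACTB* counts were 14.7 times those of *TMSB4X*, against 0.628 to 0.858 times in the other 4. *ACTG1*, the gene of the second actin of these cells, had a log2 fold change of 0.30 (95% interval 0.00 to 0.59, edgeR adjusted p = 0.163).

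By role, the Arp2/3 complex, which starts branched filaments, had 3 of 8 tested subunits higher in lrNK cells than in blood and none lower, where 8.62% of all tested genes were higher and 9.6% lower. The counts by role that follow stand beside these same shares, and with so few genes a role nothing is read from a count near them. The higher Arp2/3 genes were *ARPC1B*, from 647 ± 102 to 1006 ± 299 CPM (log2 fold change 0.64, edgeR adjusted p = 0.0137), *ARPC4* (0.55, edgeR adjusted p = 0.0302) and *ARPC5L* (0.95, edgeR adjusted p = 0.00864), named after their values were seen. These calls were not stable. That of *ARPC1B* was lost without pig 4 or 5 (edgeR adjusted p = 0.0661 and 0.068), that of *ARPC4* with lrNK and blood libraries alone (edgeR adjusted p = 0.0743) and without pig 1, 3 or 5 (edgeR adjusted p = 0.0554, 0.0893 and 0.0809) and that of *ARPC5L* without pig 1 (edgeR adjusted p = 0.0593). Against liver CD8α high cells *ARPC1B* lost its call in 4 settings, *ARPC4* in 6 and *ARPC5L* in 5, with edgeR adjusted p from 0.0521 to 0.172. Formins, which start unbranched filaments, had 3 of 9 lower and none higher. Among these, *INF2* was counted 32, 40, 30, 24 and 7 times in blood and 0, 0, 0, 0 and 4 times in lrNK libraries of pigs 1 to 5 (edgeR adjusted p = 0.00116).

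Among genes of monomer binding and turnover, 1 of 12 rose and 2 fell, near the shares of all genes. *DSTN*, which encodes destrin, a relative of cofilin, was counted 97, 81, 87, 71 and 94 times in blood and 0, 1, 13, 3 and 3 times in lrNK libraries (log2 fold change -4.04, SE 0.62, edgeR adjusted p = 7.15e-05). The lrNK library of pig 3 held 13 of these lrNK counts, and without it the log2 fold change was -5.39. *LIMK1*, a kinase that inactivates cofilin, rose from 15.7 ± 5.63 to 36.3 ± 12.2 CPM (log2 fold change 1.22, edgeR adjusted p = 0.0197), a call that was lost without pig 1 (edgeR adjusted p = 0.0749) and without pig 5 (edgeR adjusted p = 0.0915). Of 9 capping and severing genes 1 passed, *SCIN*, the severing protein scinderin, with 7, 0, 0, 0 and 0 counts in blood and 27, 64, 32, 220 and 87 counts in lrNK libraries (edgeR adjusted p = 5.78e-04). *SCIN* overlaps LOC102164901 by 2836 bases, which had at most 23 counts in a library and up to 85.2% of the *SCIN* count, so the level of *SCIN* is uncertain too.

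Of 12 bundling and cross-linking genes 2 rose and 3 fell, the largest rise being that of *EVL*, which helps filaments to grow at their ends, from 2.49 ± 0.779 to 22.2 ± 4.56 CPM (log2 fold change 3.14, SE 0.67, edgeR adjusted p = 0.00175). Its counts were low, 6 to 11 in a blood library and 36 to 89 in an lrNK library. Of 10 linkers between actin and adhesion sites 1 rose and 3 fell. *TLN2*, a talin, was counted 69, 77, 53, 27 and 49 times in blood and 0, 2, 4, 0 and 0 times in lrNK libraries (edgeR adjusted p = 1.70e-04). *VCL*, the gene of vinculin, fell from 557 ± 76.3 to 47.3 ± 21.9 CPM (log2 fold change -3.56, SE 0.26, edgeR adjusted p = 4.27e-09), and was named after its values were seen. Of the nucleation promoting factors 1 of 9 rose and 2 fell, of the myosins and tropomyosins 2 of 10 fell, and neither of 2 tested coronins passed.

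**Figure D3:**
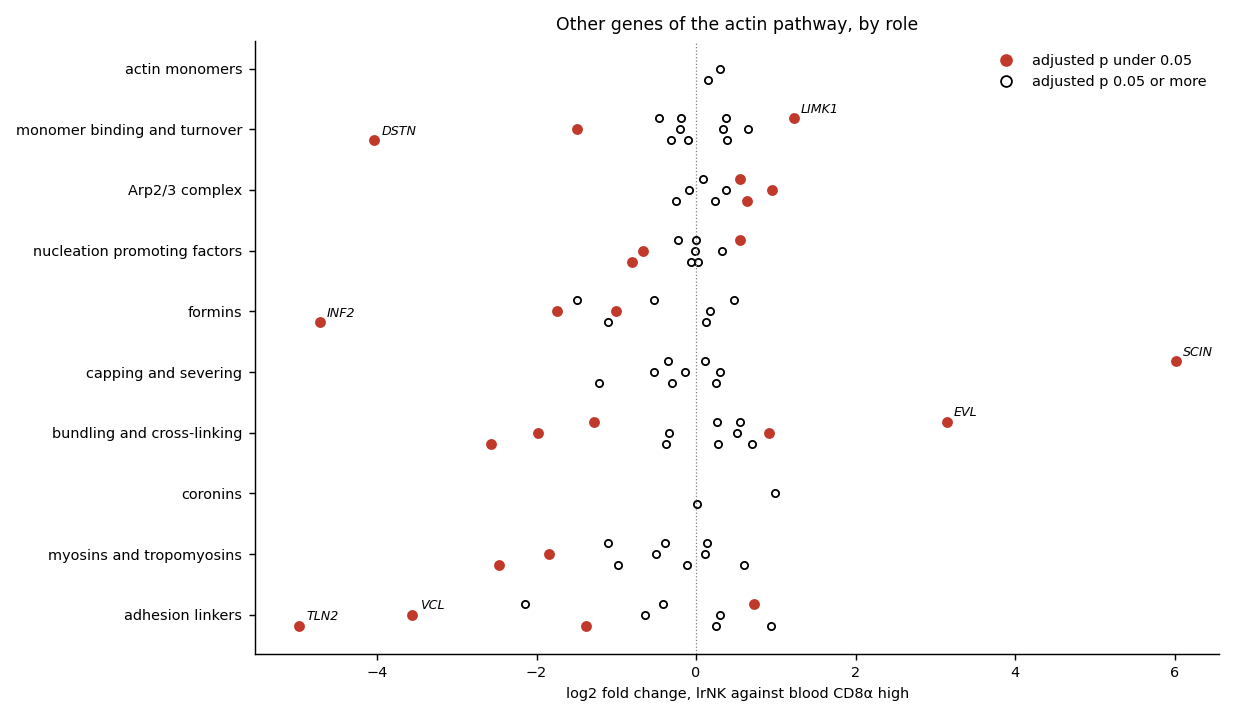
Log2 fold change of lrNK against blood CD8α high cells (x axis) for 83 other genes of the actin pathway, grouped by role (y axis). Each point is a gene, filled red where the adjusted p is under 0.05, and points are shifted up or down only to separate them. Called Arp2/3 genes lie to the right of 0 and called formins to the left.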

How the data were processed

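RNA of sorted NK cells from 5 pigs, 3 populations each, was sequenced from the 3′ end (QuantSeq). The authors trimmed reads with QuasR, aligned them with HISAT2 to *Sus scrofa* 11.1 and deposited raw counts per gene; the counting tool, its use of strand and the annotation are not given in the sources used here. All 15 columns matched a sample. Totals of 2003499 to 5680221 counts limit the precision of genes with few counts.

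From the deposited counts, edgeR 4.0.16 (R 4.3.3) fitted all 15 libraries by population after TMM scaling and filterByExpr, with quasi-likelihood tests and Benjamini-Hochberg adjustment (threshold 0.05). That fit held no term for the pig, so its p-values and intervals do not use the pairing of libraries. The authors used DESeq2, here an alternative (1.42.0). Other alternatives were its size factors, no filter, a filter of 10 counts in 10 libraries and robust dispersion. Further ones were the pig as a replicate block, 2 populations alone and each pig left out. Chosen after seeing the data were the lrNK library of pig 3 left out and a test of the pig terms. On simulated data with 200 genes changed 4-fold, for lrNK cells against blood over 10691 genes, edgeR made 158 true and 4 false calls. DESeq2 made 155 true and 23 false calls there. The simulated counts had a spread set by mean level alone, no effect of the pig and no library apart. These rates need not hold for the libraries used here.

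Same-numbered libraries come from the same pig by the labels. Their deviations from the population means correlated by 0.0577 to 0.136 (mean 0.107), against -0.0265 between pigs.

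The members and lists were chosen with earlier results of these data known. A marker gene and a group of pathway genes are not reported here, and list counts and sums leave them out. Named were all 10 members, both actin genes, the 3 largest rises and 3 largest falls among called pathway genes with 1 direction in all 5 pigs, any pathway gene called between the CD8α high populations (none was), and the 3 genes of mean count over 100 nearest to *COTL1* and to *SVIL*. Positions come from RefSeq genes of Sscrofa11.1. Figures were drawn with matplotlib 3.10.9.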

Additional observations from a re-analysis of the deposited data

Results flagged for a closer look

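Of 30 sets of 5 libraries (10 genes in 3 populations), 4 held a library whose distance from the next exceeded Dixon's 95% critical value, and chance alone marks about 1 in 20 sets. *COTL1* in blood was 151 CPM in pig 1 and 54.6 to 67.7 CPM in the other 4 pigs. *PFN1* in blood was 167 CPM in pig 4 and 1.35 to 20.6 CPM in the others. *CORO1A* in blood was 613 CPM in pig 4 and 422 to 468 CPM in the others. The same blood library of pig 4 had the highest erythroid marker sum, 321 CPM, whose part in both values was not tested. Among blood libraries it was also the highest in *TMSB4X*, *CFL1*, *LCP1*, *SVIL*, *TRIOBP*, *ACTB* and *ACTG1*, but not in *TMSB10*, *COTL1* or *FLNA*. The 10 members took 2.03% of its counts, against 1.25% to 1.47% in the other blood libraries. *FLNA* in lrNK cells was 464 CPM in pig 3 and 103 to 167 CPM in the others.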

How the results depend on the processing

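Among the 10 members, 355 of 390 alternative fold changes kept both direction and side of the threshold, and 28 changed sign. Of the named pathway genes 21 more changed sign. All of these belong to fold changes that passed the test neither before nor after. Calls of members were lost or gained only for *CORO1A*. Against liver CD8α high cells it lost its call with no filter (adjusted p = 0.0701, edgeR), with 2 populations alone (adjusted p = 0.0600, edgeR) and without pig 1, 2, 3 or 5. With the pig as a replicate block it passed against blood (log2 fold change -0.38, adjusted p = 0.0492, edgeR), and the block changed no other call of a member or named gene. Named pathway genes lost their call in 26 settings, 4 of *LIMK1* and the others of *ARPC1B*, *ARPC4* and *ARPC5L*, and *VCL* lost none. The 7 calls over all genes between the CD8α high populations became 24 with DESeq2, 18 with no filter, 4 with robust dispersion and 16 with those populations alone, and 0 to 12 with libraries left out (0 without pig 2, 12 without the lrNK library of pig 3). Calls between lrNK and liver CD8α high cells, 1601, ran from 1051 (without pig 5) to 1764 with libraries left out. Members that differed between pigs numbered 0 with all libraries, 1 without the lrNK library of pig 3 and 2 in the CD8α high libraries alone. The cause of these changes was not tested. Low counts limit *PFN1*, *SCIN*, *INF2*, *TLN2*, *EVL* and *DSTN*.

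The log2 fold changes that changed sign are given with their range when libraries were left out. For lrNK cells against blood these ranges were -0.115 to 0.402 for *CFL1*, -0.647 to 0.956 for *PFN1* (0.263 with the replicate block), -0.409 to 0.00416 for *TMSB4X*, -0.156 to 0.102 for *LCP1* (0.00990 with DESeq2, 0.00993 with its size factors, 0.0130 with the stricter filter) and -0.208 to 0.287 for *ACTB*. Against liver CD8α high cells they were -0.0259 to 0.405 for *CFL1*, -0.491 to 0.0108 for *PFN1*, -0.0441 to 0.189 for *LCP1* and -0.179 to 0.245 for *ACTB*. Between the CD8α high populations they were -0.145 to 0.00183 for *SVIL*, -0.144 to 0.223 for *CFL1* (0.00950 with the block), -0.471 to 1.448 for *PFN1* (0.805 with the block, 0.0213 with those populations alone), -0.0760 to 0.206 for *TMSB4X* (-0.00110 with DESeq2, -0.00114 with its size factors), -0.118 to 0.0431 for *LCP1*, -0.0152 to 0.125 for *ARPC1B*, -0.0903 to 0.112 for *ARPC4* (0.00141 with no filter, 0.0212 with the block, 0.0122 with those populations alone), -0.0288 to 0.106 for *ACTB*, -1.058 to 0.386 for *EVL* (-0.412 with the block), -0.214 to 0.159 for *LIMK1* and -0.389 to 0.104 for *INF2*.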
